A study of Mus musculus with 6 samples.

Results

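Voltage-gated and potassium channel genes were taken by symbol from the gene list of the deposited matrices: the Kcn potassium channel genes with their auxiliary subunits, the Scn sodium channel genes and the Cacna, Cacnb and Cacng calcium channel genes, without symbols ending in os or Rik. This gave 136 of 54446 genes. Of these, 133 are protein-coding and 3, Kcnq1ot1, Kcnmb4os1 and Kcnmb4os2, are non-coding transcripts named after a channel gene. The study set GL261, an established mouse glioma cell line kept in differentiation medium with fetal calf serum (2 libraries), beside GL261-GSCs, labelled as glioblastoma stem cells and kept in a defined medium (4 libraries). Line and medium change together, and the labels give no genotype, treatment or passage for either group. Nothing says that the libraries of a group came from separate cultures, so p-values measure only the spread between these libraries, which may be technical. In UMIs summed over a library, fewer cells expressing a gene and less of its RNA per cell cannot be told apart.

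Ion channels of these families set the membrane potential and let potassium, sodium or calcium cross the membrane when voltage, calcium or other signals open them. The pore is formed by alpha subunits, and auxiliary subunits (Kv beta, KChIP, KCNE, the beta subunits of sodium and calcium channels) change how the pore reaches the surface and how fast it opens and closes. In glia, inward rectifier and tandem pore (K2P) potassium channels carry much of the resting conductance, while oligodendrocyte precursors also carry voltage-gated sodium, potassium and calcium channels. Several Cacng genes encode TARPs, which act as auxiliary subunits of AMPA glutamate receptors.

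The 250 bases before the RefSeq transcription start are shown for Kcnip3 and Kcnk13, the called rises with the most UMIs in GL261-GSCs, and for Kcna6 and Kcna4, the steepest falls among called genes that reached 1 CPM, so that genes moving in opposite directions can be read side by side. They are written 5′ to 3′ on the strand of the gene. Capitals mark matches to CAGCTG, an E-box, or to GGGCGG, an SP1 site, searched on both strands.
Kcnip3: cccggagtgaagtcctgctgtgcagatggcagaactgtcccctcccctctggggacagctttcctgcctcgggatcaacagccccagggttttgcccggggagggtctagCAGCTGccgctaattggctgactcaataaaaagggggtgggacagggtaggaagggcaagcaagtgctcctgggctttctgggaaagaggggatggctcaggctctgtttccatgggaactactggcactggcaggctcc
Kcnk13: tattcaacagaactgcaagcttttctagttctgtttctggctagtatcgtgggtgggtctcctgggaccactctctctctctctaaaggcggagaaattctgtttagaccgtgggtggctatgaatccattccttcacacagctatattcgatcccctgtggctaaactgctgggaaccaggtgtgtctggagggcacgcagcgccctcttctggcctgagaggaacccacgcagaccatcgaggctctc
Kcna6: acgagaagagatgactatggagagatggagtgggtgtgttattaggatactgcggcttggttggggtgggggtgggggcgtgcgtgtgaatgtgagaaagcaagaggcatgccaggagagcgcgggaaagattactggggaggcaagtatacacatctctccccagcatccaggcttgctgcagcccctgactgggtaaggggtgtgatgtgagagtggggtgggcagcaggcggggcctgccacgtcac
Kcna4: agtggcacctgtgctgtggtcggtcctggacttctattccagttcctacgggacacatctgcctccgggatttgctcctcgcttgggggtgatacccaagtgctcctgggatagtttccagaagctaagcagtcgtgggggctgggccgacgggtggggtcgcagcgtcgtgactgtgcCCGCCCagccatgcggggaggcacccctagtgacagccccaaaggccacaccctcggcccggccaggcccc
In GRCm38.p6 the windows are chr2:127522095-127522344 on the minus strand for Kcnip3, chr12:99964249-99964498 on the plus strand for Kcnk13, chr6:126740675-126740924 on the minus strand for Kcna6 and chr2:107290339-107290588 on the plus strand for Kcna4. For Kcnip3 the most upstream of 3 listed starts was used. GC content was 60.0%, 52.8%, 58.8% and 65.2% in the same order. Kcnip3 held 1 E-box and Kcna4 held 1 SP1 site, and neither motif was found in the windows of Kcnk13 and Kcna6. Of all 32851 RefSeq windows of this length, 4271 held the E-box and 32.7% held the SP1 site. TATAAA was in none of the 4 windows and in 12.4% of all windows. No factor binding was measured, and a match is only a description of the sequence. RefSeq gave windows for 100 of the 136 genes.

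Called cells numbered 4264 to 7275 per library, with 33320530 to 79472306 UMIs summed over them. Called barcodes shared between pairs of libraries numbered 32 to 59, against 26.1 to 57.9 by chance. The GL261-GSCs libraries resembled each other in pairs: the median absolute difference over 18433 genes, on the log2(CPM + 1) scale, was 0.14 between replicates 1 and 2 and 0.16 between replicates 3 and 4, and 0.20 to 0.32 across these pairs. Replicate 4 stood apart, with 41.2% of its UMIs in called cells against 56.7% to 65.7% in the other libraries, and with the nuclear RNA Malat1 at 0.813% of UMIs against 0.288% to 0.457%. The 5 markers of oligodendrocyte precursors summed to 505 to 563 CPM in GL261 and to 1291 to 2300 CPM in GL261-GSCs. Pdgfra, Olig1 and Olig2 were called higher, and Cspg4 and Sox10 were not called. Cspg4 was at 164 and 200 CPM in GL261 and at 67.2, 83.3, 148 and 209 CPM in GL261-GSCs. Sox10 was at 331 and 358 CPM in GL261 and at 382, 358, 304 and 329 CPM in GL261-GSCs. The 6 neuronal markers summed to 85.3 and 92.5 CPM in GL261, nearly all of it Tubb3, and to 37.4 to 82.9 CPM in GL261-GSCs. Rbfox3 had 0 UMIs, and Snap25, Gad1 and Slc17a7 stayed under 1 CPM. Syt1 was at 0.0148 and 0.0331 CPM in GL261 and at 1.15, 12.4, 51.5 and 78.2 CPM in GL261-GSCs (edgeR adjusted p = 0.0194), and Tubb3 was at 85.0 and 92.3 CPM in GL261 and at 45.8, 24.7, 4.15 and 4.45 CPM in GL261-GSCs, not called. Of the 4 astrocyte markers Aqp4 had 0 UMIs, Slc1a3 was at 0.163 and 0 CPM in GL261 and at 61.2, 85.7, 68.1 and 84.0 CPM in GL261-GSCs (edgeR adjusted p = 0.000253), and Gfap and Aldh1l1 were called lower. The astrocyte list summed to 7.85 and 8.50 CPM in GL261 and to 61.2 to 85.7 CPM in GL261-GSCs. The part of these markers in the channel results was not tested. Olig1, Olig2, Syt1 and Slc1a3 passed the filter on low counts only through GL261-GSCs, and Gfap and Aldh1l1 only through GL261. The 5 microglia markers summed to 12.86 to 12.99 CPM in GL261, nearly all of it Csf1r, and to 0.192 to 0.349 CPM in GL261-GSCs.

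Most channel genes were silent or nearly so in both groups. Of the 136 genes, 22 had no UMI in any called cell, 52 untested genes had 1 to 10 UMIs over all 6 libraries, and 24 reached 1 CPM (UMIs scaled to a common effective library size) in at least 1 library. The 46 genes that passed the filter on low counts were tested, and 18 of them passed an adjusted p of 0.05 in edgeR, 12 higher and 6 lower in GL261-GSCs. Over all 18433 genes the called share was 29.9%, with 15.8% higher and 14.1% lower. A gene can pass the filter through 1 high group alone, so the tested genes do not stand for all 136. Called genes that passed only through GL261-GSCs were Kcnip3, Kcnh2, Scn3a, Kcnj12, Kcnj3, Kcnj4, Cacng4 and Cacng8. Kcnk5 passed only through GL261. In 28 of the 46 every library of 1 group lay above every library of the other, and the same held for 56.7% of all tested genes. The median log2 change was 0.96 over the 46 and 0.04 over all genes. Kcnip3, Kcnj12 and Kcna6 were called with any single library left out. The calls fell to 5 without GL261 replicate 1 and to 4 without GL261 replicate 2, where the 1 GL261 library left gives no spread of its own. The spread in those fits comes from the 4 GL261-GSCs libraries, and the lone library is assumed to vary like them. Protein-coding channel genes summed to 142 and 142 CPM in GL261 and to 148, 165, 208 and 239 CPM in GL261-GSCs.

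**Figure D1:**
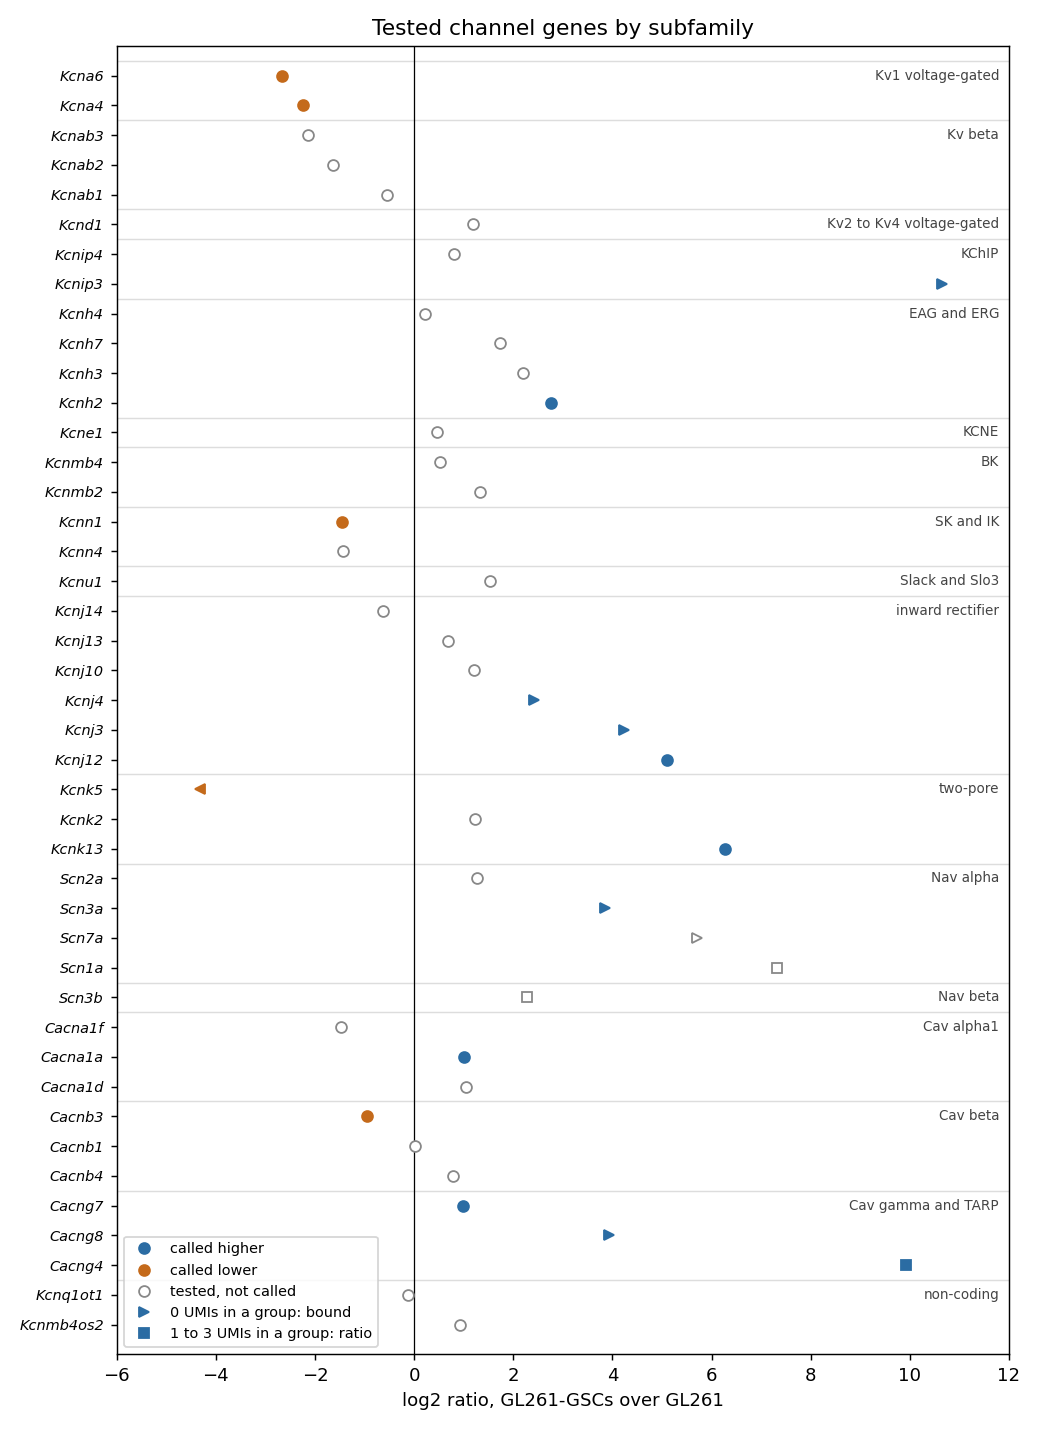
Log2 ratio of GL261-GSCs over GL261 (horizontal axis) for 43 of the 46 tested channel genes, grouped by subfamily. Filled symbols passed the edgeR test (11 higher, 5 lower) and open symbols did not. Triangles are bounds against 3 UMIs over a group without UMIs, and squares are ratios with 1 to 3 UMIs in GL261. Kcnip3 lies farthest to the right, and the tested Kv1 and Kv beta genes lie left of 0.

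Among voltage-gated potassium channels, Kcna6 and Kcna4 of the Kv1 subfamily fell in GL261-GSCs. Kcna6 encodes the delayed rectifier subunit Kv1.6 (ENSMUSG00000038077.7, chromosome 6, 126708329 to 126740674, minus strand). It stood at 30.9 and 30.8 CPM in GL261 and at 6.97, 6.91, 2.73 and 2.75 CPM in GL261-GSCs replicates 1 to 4. Both GL261 libraries lay far above the others, and replicates 3 and 4 lay below replicates 1 and 2. The means were 30.8 ± 0.0817 CPM (SD, n = 2) and 4.84 ± 2.43 CPM (SD, n = 4) (log2 change -2.67, SE 0.43, edgeR adjusted p = 0.00512). An antisense gene, Gm26673, of at most 5.44 CPM, overlaps Kcna6, and the sources used here do not say whether strand entered the counting. Kcna4, the A-type subunit Kv1.4, was at 1.93 and 2.34 CPM in GL261 and at 0.227, 0.262, 0.538 and 0.797 CPM in GL261-GSCs, without overlap (log2 change -2.25, SE 0.50, edgeR adjusted p = 0.0162). It was not called without GL261 replicate 1 or 2, at adjusted p of 0.0777 and 0.113. The other 6 Kv1 genes were too low to test. Kcna5 and Kcna1 lie with Kcna6 within 208 kb of chromosome 6, and over all libraries Kcna5 had 0 UMIs and Kcna1 had 1.

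The Kv beta genes encode cytoplasmic partners of Kv1 channels, and none of the 3 was called. Kcnab3 was at 8.68 and 8.32 CPM in GL261 and at 4.05, 2.06, 0.925 and 0.604 CPM in GL261-GSCs, and just missed the threshold (log2 change -2.15, SE 0.67, edgeR adjusted p = 0.0505). It passed in 8 of 16 alternatives. Kcnab2 was at 14.7 and 16.5 CPM in GL261 and at 2.41, 2.22, 7.43 and 7.97 CPM in GL261-GSCs (log2 change -1.64, SE 0.55, edgeR adjusted p = 0.0645). It passed in 7 of 16 alternatives. The groups did not overlap for either gene, but GL261-GSCs spread widely: replicates 1 and 2 were the higher pair for Kcnab3 and the lower pair for Kcnab2. Kcnab1 was tested at under 1 CPM and its groups overlapped.

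Kcnip3 was not detected in the called cells of GL261 and was present in every GL261-GSCs library. It encodes KChIP3, a calcium-binding partner of Kv4 channels that is also known as the transcriptional repressor DREAM (ENSMUSG00000079056.12, chromosome 2, 127456498 to 127522094, minus strand). No called cell of either GL261 library held a UMI of it, and it stood at 24.3, 27.6, 48.9 and 57.7 CPM in GL261-GSCs replicates 1 to 4. Replicates 3 and 4 were the higher pair. The GL261-GSCs mean was 39.6 ± 16.2 CPM (SD, n = 4), at least 1608-fold higher than 3 UMIs over the GL261 group (edgeR adjusted p = 0.000477). The gene was tested only because of its level in GL261-GSCs. It made up 16.4% to 24.1% of protein-coding channel UMIs there. The Kv4 pore genes whose products it is known to bind were low: Kcnd2 had 2 UMIs per group and Kcnd3 had 1 UMI in all. Kcnd1 was at 0.518 and 0.597 CPM in GL261 and at 0.212, 0.869, 1.45 and 2.64 CPM in GL261-GSCs, with overlap (edgeR adjusted p = 0.332). Dpp6, another auxiliary subunit of Kv4 channels, had 1 UMI in GL261 and 5.96, 8.75, 14.7 and 16.1 CPM in GL261-GSCs (edgeR adjusted p = 0.000481). The other 3 KChIP genes reached at most 0.386 CPM.

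Of the remaining voltage-gated potassium channels, Kcnh2 rose. Kcnh2, the ERG1 channel, was at 0.0889 and 0.0663 CPM in GL261 and at 0.500, 0.524, 0.388 and 0.769 CPM in GL261-GSCs (log2 change 2.76, SE 0.45, edgeR adjusted p = 0.00531), a rise that starts from 10 UMIs in GL261. It was not called without GL261 replicate 1 or 2, at adjusted p of 0.0504 and 0.0684. None of the 5 Kv7 genes and none of the 10 modifier genes (Kcnf, Kcng, Kcns, Kcnv) had enough UMIs to test.

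Among calcium-activated potassium channels, the BK pore was undetected while a BK partner was present. Kcnma1, the BK pore, had 0 UMIs in all 6 libraries, which allows up to 0.00784 CPM (3 UMIs over all libraries). Kcnmb4, its neuronal beta subunit, was at 9.90 and 8.58 CPM in GL261 and at 10.4, 25.3, 7.25 and 10.4 CPM in GL261-GSCs, with overlap (edgeR adjusted p = 0.452). GL261-GSCs replicate 2 was the high library. Kcnmb4os2, which overlaps Kcnmb4 on the other strand, was highest in that library too, at 5.40 CPM. Reads from the 716 bases that the pair shares cannot be told apart without strand.

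Kcnn4, the intermediate conductance channel KCa3.1, known from glioma cell migration, was at 14.3 and 15.2 CPM in GL261 and at 3.49, 0.193, 8.29 and 10.1 CPM in GL261-GSCs. The groups did not overlap, but GL261-GSCs spread from 14 UMIs in replicate 2 to 663 in replicate 3, and the difference did not pass (log2 change -1.42, SE 1.06, edgeR adjusted p = 0.343). It passed in 2 of 16 alternatives. In that without GL261-GSCs replicates 1 and 2, chosen after seeing the data, the log2 change was -0.67 (edgeR adjusted p = 0.00808). Kcnn1, a small conductance channel, was called lower at under 1 CPM in every library (edgeR adjusted p = 0.0455), and passed in 7 of 16 alternatives.

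**Figure D2:**
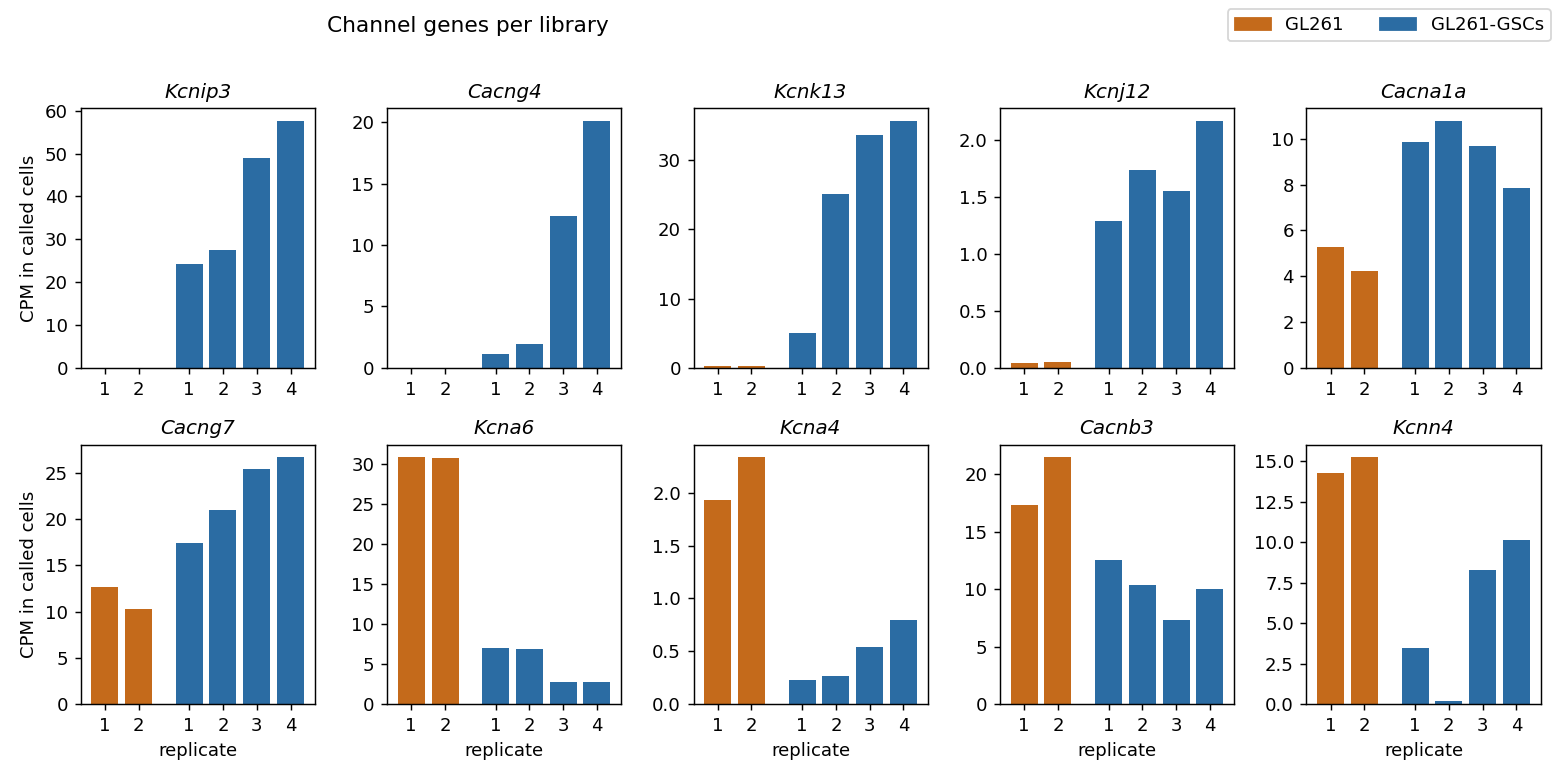
CPM (vertical axis, linear, from 0) in each library for 9 called channel genes and for Kcnn4. The called genes were chosen for no overlap between the groups and at least 1 CPM in the higher group. Orange bars are GL261 replicates and blue bars GL261-GSCs replicates. Kcnip3 is at 0 in both GL261 libraries.

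Resting potassium channels moved in both directions. Kcnk13, the K2P channel THIK-1 (ENSMUSG00000045404.16, chromosome 12, 99964499 to 100062682, plus strand), was at 0.341 and 0.298 CPM in GL261 and at 4.99, 25.1, 33.6 and 35.7 CPM in GL261-GSCs replicates 1 to 4. Every GL261-GSCs library lay above both GL261 libraries, and replicate 1 was the lowest of them. It rose (log2 change 6.27, SE 0.97, edgeR adjusted p = 0.00422), and just missed without GL261 replicate 2, at 0.0530. THIK-1 is best known from microglia. The 5 microglia markers summed to 0.192 to 0.349 CPM in GL261-GSCs, most of it Csf1r and below GL261 in every library, and their part in this result was not tested. Kcnk2, the mechanically gated TREK-1, was at 5.24 and 4.59 CPM in GL261 and at 27.1, 7.96, 6.35 and 4.64 CPM in GL261-GSCs, with overlap (edgeR adjusted p = 0.249). Kcnk5, an acid-sensitive channel, had 30 UMIs in the GL261 libraries and none in GL261-GSCs, at least 19.9-fold lower (edgeR adjusted p = 0.0114). Leaving out GL261 replicate 1 ended this call, at 0.0824, and without GL261 replicate 2 the gene did not reach the filter.

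Of 15 inward rectifier genes 9 were too low to test. Kcnj12, Kcnj3 and Kcnj4 had too few UMIs in GL261 to pass the filter there, so they were tested only because of their level in GL261-GSCs. Kcnj12, which encodes Kir2.2, was at 0.0444 and 0.0497 CPM in GL261 and at 1.29, 1.74, 1.55 and 2.17 CPM in GL261-GSCs, without overlap (log2 change 5.11, SE 0.42, edgeR adjusted p = 0.000372), from 6 UMIs in GL261. Kcnj3, a subunit of G protein-gated channels, was without UMIs in GL261 and at 0.622, 0.138, 0.550 and 0.467 CPM in GL261-GSCs, at least 18.7-fold higher (edgeR adjusted p = 0.00978). Kcnj4, a strong inward rectifier, was without UMIs in GL261 and had 32 in GL261-GSCs, at least 5.35-fold higher (edgeR adjusted p = 0.0354). Kcnj3 and Kcnj4 were not called without GL261 replicate 1 or 2, at 0.0550 and 0.0538 and at 0.144 and 0.142. Kcnj4 also missed without GL261-GSCs replicate 4, at 0.0518, and did not reach the filter without GL261-GSCs replicate 1 or 2. Kcnj10, the main glial channel Kir4.1, was at 0.0444 and 0.182 CPM in GL261 and at 0.879, 0.0690, 0.05002 and 0.0275 CPM in GL261-GSCs and was not called (edgeR adjusted p = 0.561), with replicate 1 far above the rest. Its partner Kcnj16 had 1 UMI in all, in GL261 replicate 1.

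Sodium channel alpha subunits carry the fast inward current of excitable cells, and 5 of their 10 genes lie within 1328 kb of chromosome 2. In the order Scn3a, Scn2a, Scn1a, Scn9a and Scn7a, all but Scn9a were higher in GL261-GSCs replicates 3 and 4 than in every other library. Scn1a was at 0.0296 and 0.0166 CPM in GL261 and at 0.0455, 0.828, 7.28 and 8.38 CPM in GL261-GSCs, with 3 UMIs in GL261 and a ratio of 159 (95% counting interval 54.2 to 772). Scn7a, an atypical subunit, was without UMIs in GL261 and at 0.0910, 0.0414, 2.45 and 2.91 CPM in GL261-GSCs. Scn2a was at 1.07 and 0.944 CPM in GL261 and at 0.607, 0.759, 3.74 and 4.67 CPM in GL261-GSCs, so that GL261 lay between the replicate pairs. Scn9a had at most 2 UMIs in a library. Between the groups only Scn3a of these was called, without UMIs in GL261 and at 0.136, 0.0552, 0.613 and 0.659 CPM in GL261-GSCs, at least 14.4-fold higher (edgeR adjusted p = 0.0472). It missed under limma-voom, at 0.0519, with cells of at least 1000 UMIs, at 0.0526, and without GL261 replicate 1 or 2, at 0.167 and 0.166, and it did not reach the filter without GL261-GSCs replicate 3 or 4. Scn1a, Scn7a and Scn2a did not pass, at edgeR adjusted p of 0.0567, 0.0900 and 0.324. Scn1a was called in 5 of 15 alternatives that tested it and Scn7a in 4 of 13, among them DESeq2, at 0.000488 and 0.00259. The replicate pairs are not groups of the labels, and their difference was not tested. Of the neuronal markers Syt1 was also highest in replicates 3 and 4, and Tubb3 was lowest there. Malat1 moved with the pairs too, at 0.457% and 0.813% of UMIs in replicates 3 and 4 against 0.288% and 0.344% in replicates 1 and 2, and the part of these genes was not tested.

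**Figure D3:**
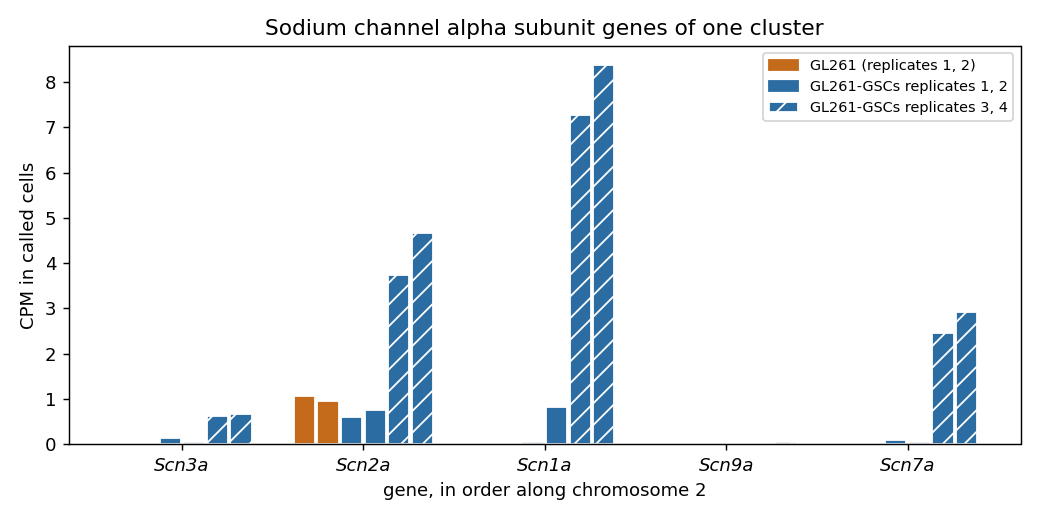
CPM per library (vertical axis, linear) of the 5 sodium channel alpha subunit genes of the chromosome 2 cluster, in their order along the chromosome. Orange bars are GL261, plain blue bars GL261-GSCs replicates 1 and 2, and hatched bars replicates 3 and 4. Scn1a reaches 8.38 CPM in replicate 4, and Scn9a is near 0 in all libraries.

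Sodium channel beta subunits modulate the alpha subunits and act in cell adhesion. Of their genes, Scn2b and Scn4b had no UMI, and Scn3b, with 3 UMIs in GL261 and 29 UMIs in GL261-GSCs, was not called (edgeR adjusted p = 0.194).

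Among calcium channel pores, Cacna1a, which encodes the P/Q-type channel Cav2.1, rose. It was at 5.26 and 4.21 CPM in GL261 and at 9.86, 10.8, 9.68 and 7.86 CPM in GL261-GSCs, without overlap (log2 change 1.01, SE 0.22, edgeR adjusted p = 0.0143). An antisense gene, Gm16183, of at most 2.36 CPM, overlaps it. The L-type pore gene Cacna1c was at 6 UMIs in GL261 against 2 in GL261-GSCs, too few to test. None of the 4 Cacna2d genes passed the filter. Cacnb3, a cytoplasmic beta subunit, was at 17.3 and 21.5 CPM in GL261 and at 12.5, 10.3, 7.30 and 10.00 CPM in GL261-GSCs, without overlap, and fell (log2 change -0.95, SE 0.23, edgeR adjusted p = 0.0226). Neither Cacna1a nor Cacnb3 was called without GL261 replicate 1 or 2, at 0.0752 and 0.155 and at 0.0852 and 0.197. The beta subunit genes Cacnb1 and Cacnb4 were not called, at edgeR adjusted p of 0.970 and 0.0892.

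Of 8 Cacng genes 5 were too low to test. Cacng4 and Cacng8 passed the filter only through GL261-GSCs. Cacng4, the TARP gamma-4 (ENSMUSG00000020723.3, chromosome 11, 107732357 to 107794557, minus strand), had 1 UMI in GL261, in replicate 1, and was at 1.14, 1.97, 12.4 and 20.1 CPM in GL261-GSCs replicates 1 to 4. The ratio was 974, with a 95% counting interval from 175 to 38493 (edgeR adjusted p = 0.0148). Replicates 3 and 4 were the high pair, as for Scn1a. Cacng4 was not called under limma-voom, at 0.0870, or without GL261 replicate 1 or 2, at 0.101 and 0.117. Cacng7, the TARP gamma-7, was at 12.6 and 10.2 CPM in GL261 and at 17.4, 20.99, 25.4 and 26.7 CPM in GL261-GSCs, without overlap (log2 change 0.98, SE 0.22, edgeR adjusted p = 0.0173). It was not called without GL261 replicate 1 or 2, at 0.0826 and 0.162. Cacng8, the TARP gamma-8, was without UMIs in GL261 and at 0.106, 0.124, 0.663 and 0.604 CPM in GL261-GSCs, at least 15.2-fold higher (edgeR adjusted p = 0.0330). Its call was lost without GL261 replicate 1 or 2, at 0.130 and 0.129, and it did not reach the filter without GL261-GSCs replicate 3 or 4.

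Per cell these genes were seen sparsely. After thinning each cell to 2000 UMIs, Kcnip3 was seen in 4.48%, 5.67%, 9.69% and 12.3% of the cells of GL261-GSCs replicates 1 to 4, and in 0 of 4808 and 0 of 5002 GL261 cells, which allows shares of cells with a UMI, not of cells expressing the gene, of up to 0.0624% and 0.0600%. Without thinning the GL261-GSCs shares were 29.5%, 26.6%, 36.3% and 33.3%. Free RNA of the same libraries was taken from barcodes of 100 to under 1000 UMIs. Cells whose 2000 UMIs were all free RNA would give 4.82%, 5.41%, 10.5% and 12.9%, called the free RNA level here. The shares lay near that level, so Kcnip3 made up a like part of cell RNA and free RNA. Called cells held a median of 15374.5, 11889.5, 10638 and 6670 UMIs in GL261-GSCs replicates 1 to 4, and the free RNA barcodes 679, 472, 542 and 614. The level is not an estimate of the background in a cell. How much of these UMIs is background was not tested, and the shares do not show which cells express Kcnip3. The free RNA barcodes held 0 and 2 UMIs of Kcnip3 in GL261 and 904 to 2691 in GL261-GSCs. Cacng7 was below the free RNA level in all 6 libraries. Kcnk13 lay above it in the GL261-GSCs libraries, at 1.06%, 4.99%, 6.93% and 9.02% against 0.743%, 3.76%, 6.07% and 5.12%. Kcna6 lay above it in GL261, at 5.62% and 5.86% against 3.57% and 2.74%. Intervals of these shares cover counting error only.

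The non-coding Kcnq1ot1 stood well above free RNA in all 6 libraries. It is the imprinted antisense transcript of the Kcnq1 locus (ENSMUSG00000101609.2, chromosome 7, 143203458 to 143296549, minus strand) and stays in the nucleus. It made up 23.7% to 38.8% of the UMIs of all 136 genes. It was at 91.4 and 79.3 CPM in GL261 and at 61.6, 84.9, 64.9 and 104 CPM in GL261-GSCs, with overlap and no call (edgeR adjusted p = 0.730), and the sign of its difference turned under library size scaling and with other cell thresholds. After thinning it was seen in 16.7% and 13.8% of GL261 cells and in 12.9%, 16.1%, 13.6% and 21.9% of GL261-GSCs cells. Cells of free RNA alone would give 1.08% to 4.93%. Kcnq1 itself, on the opposite strand, reached at most 0.0828 CPM.

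**Figure D4:**
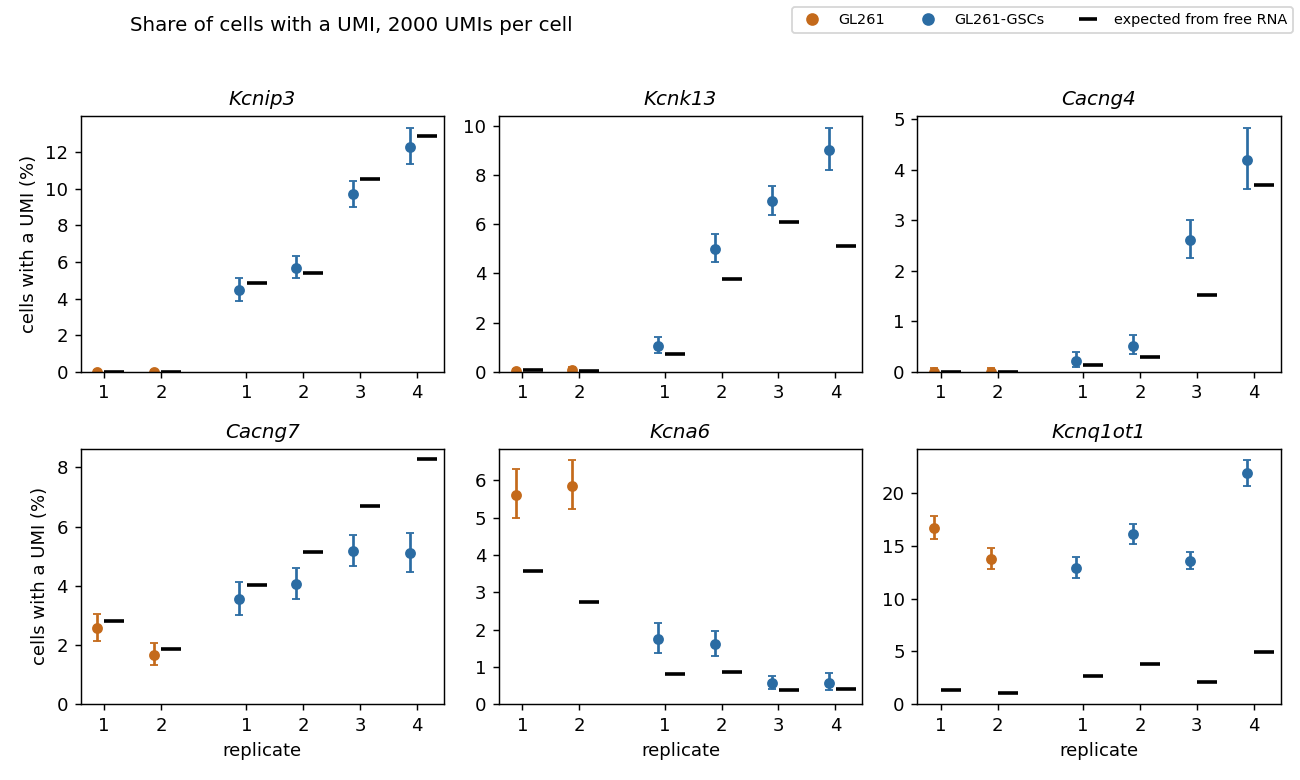
Share of called cells with at least 1 UMI (vertical axis, %) after thinning to 2000 UMIs, for 6 channel genes in each library. Points carry 95% exact binomial intervals, orange for GL261 and blue for GL261-GSCs. Black dashes give the share expected if all 2000 UMIs of a cell were free RNA of the same library, not the background in a cell. Kcnip3 lies near its dashes, and Kcnq1ot1 lies far above them in all 6 libraries.

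Genes outside the families that act with these channels were read from a list of 35 partners, of which 20 were tested, 7 called higher and 5 called lower in GL261-GSCs, where 15.8% and 14.1% of all tested genes were called higher and lower. With 25 ion pumps and exchangers added, the calls fell from 20 to 7 and 6 without GL261 replicate 1 or 2 and to 11 without GL261-GSCs replicate 3. Unc80, part of the sodium leak channel complex, was at 0.874 and 0.464 CPM in GL261 and at 5.73, 5.93, 2.60 and 2.36 CPM in GL261-GSCs (log2 change 2.63, SE 0.57, edgeR adjusted p = 0.0147). Nalcn, the pore of that complex, was at 17.2 and 18.9 CPM in GL261 and at 20.0, 15.4, 29.8 and 34.7 CPM in GL261-GSCs, with overlap (edgeR adjusted p = 0.324). Rest, a repressor of neuronal genes that include channel genes, was at 90.4 and 93.3 CPM in GL261 and at 71.2, 59.3, 57.4 and 56.4 CPM in GL261-GSCs (log2 change -0.59, SE 0.13, edgeR adjusted p = 0.0179). Nedd4l, a ubiquitin ligase that takes sodium and potassium channels off the surface, was at 81.5 and 76.0 CPM in GL261 and at 23.7, 20.9, 21.8 and 19.3 CPM in GL261-GSCs (log2 change -1.88, SE 0.12, edgeR adjusted p = 0.000173). For Unc80, Rest and Nedd4l the groups did not overlap. Unc80 was not called without GL261 replicate 1 or 2, at edgeR adjusted p of 0.0659 and 0.130. Rest was not called without either of them, at 0.119 and 0.152, or without GL261-GSCs replicate 3, at 0.0513. The partners named were chosen after their values were seen.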

How the data were processed

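Accutase-dissociated cultures were lysed with detergent and captured as cells or nuclei for 10x Genomics 5' libraries, per the labels' protocols. The authors deposited raw UMI counts per gene and barcode, without barcode filtering, made with Cell Ranger 4 per the file headers and on mm10 per the submitters' processing notes. Whether intronic reads or strand entered the counts was not given.

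A cell needed 10% of the UMIs at percentile 99 of the 3000 largest barcodes, 500 genes and under 10% mitochondrial UMIs. Doublets were kept. Library sums of UMIs over called cells were tested, all genes together, with edgeR 4.0.16 in R 4.3.3 (quasi-likelihood, TMM, filterByExpr, Benjamini-Hochberg over all genes, 2-sided, no block). Alternatives used limma 3.58.1 and DESeq2 1.42.0, other scalings, filters and cell thresholds, and left out libraries. The scripts were tested on simulated data. Changes on the log2 scale are GL261-GSCs relative to GL261, with the SE taken from the F statistic. Where a group had 0 UMIs the fold is a bound computed with 3 UMIs in its place, and 1 to 3 UMIs give a ratio with a counting interval. Gene coordinates are from GENCODE M21 (GRCm38), where all 136 identifiers matched, and promoter sequences from RefSeq (GRCm38.p6).

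The channel genes and lists were chosen with earlier results of these data known. Named by rule were called genes without overlap at 1 CPM or more in the higher group (up to 14 each way), the 8 with the highest mean CPM, and Kcnj10, Kcnj16, Kcnn4, Kcnma1, Kcnh2, Kcna1, Scn1a, Cacna1c and Cacng4. Other channel genes were named after their values were seen. Some genes are counted but not reported here by name. CPM values and shares of UMIs, also those that chose the 8 genes, are not scaled by gene length and do not rank genes by transcript level.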

Additional observations from a re-analysis of the deposited data

Results flagged for a closer look

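In 3 of 53 groups of GL261-GSCs values examined, 1 library lay far from the other 3 by the criterion of Dixon, which chance alone meets in about 1 in 20. Kcnk2 was at 27.1 CPM in GL261-GSCs replicate 1, and the next highest library was at 7.96 CPM. Kcnj10 was at 0.879 CPM in GL261-GSCs replicate 1, and the next highest library was at 0.0690 CPM. Cacna1f was at 0.359 CPM in GL261-GSCs replicate 2, and the next highest library was at 0.0758 CPM. None of these genes was called between the groups.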

How the results depend on the processing

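Over the single libraries left out, called channel genes ranged from 4 to 21, those higher from 2 to 13, those lower from 2 to 8, all genes called from 1816 to 6192 and partner genes called from 6 to 22, each lowest without a GL261 library, where the spread comes from GL261-GSCs alone. Without GL261-GSCs replicates 1 and 2, 29 channel genes, 11 of them lower, and 9879 genes in all were called. That alternative and the one without replicates 3 and 4 were chosen after seeing the data. Both groups use the numbers 1 and 2, and the deviations of same-numbered libraries from their group means had correlations of -0.026 and 0.037. The deviations of only 2 GL261 libraries mirror each other, so these values cannot exclude a shared batch. With the replicate block 23 channel genes were called, of which 17 are among the 18, and Kcnn4 was at -3.68 and passed (edgeR adjusted p = 0.0379). In that fit GL261-GSCs replicates 3 and 4 have no GL261 library of the same number and add nothing to the group difference. It rests on replicates 1 and 2 of each group, as in the alternative without replicates 3 and 4. Scaling by library size took the median of all genes on the log2 scale to 0.18 from 0.04, and the calls from 2920 higher and 2594 lower to 3491 and 2034. Of the 35 tested channel genes followed across the alternatives, 5 turned sign, none of them called with all libraries in edgeR. Kcnq1ot1 was at 0.040 under library size scaling, 0.13 with barcodes of at least 1000 UMIs and 0.076 with all barcodes. Cacnb1 was at -0.020 under limma-voom, -0.24 with the block, -0.11 without GL261 replicate 1 (against 0.15 without replicate 2), -0.11 without GL261-GSCs replicate 4 and -0.23 without GL261-GSCs replicates 3 and 4. Scn2a was at -0.56 with the block and -0.55 without replicates 3 and 4, Kcnd1 at -0.25 and -0.024, and Kcnmb4 at -0.054 without replicates 1 and 2. The partner Nalcn was at -0.038 with the block and -0.021 without replicates 3 and 4. The causes were not tested. With 2 GL261 libraries the spread of that group is poorly known, and genes under 1 CPM rest on few UMIs.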

Other observations

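Ion pumps and exchangers, read from a list of 25 genes of which 18 were tested, gave 3 genes called higher and 5 called lower in GL261-GSCs (edgeR), where 15.8% and 14.1% of all tested genes were called higher and lower. The falls were 4 Fxyd genes, whose products regulate the sodium pump, and Atp2b4, a calcium pump. Fxyd5 was at 90.5 and 109 CPM in GL261 and at 0.258, 0.0276, 0.313 and 0.302 CPM in GL261-GSCs, without overlap (log2 change -8.82, SE 0.55, edgeR adjusted p = 0.000150). Fxyd7 was at 1.14 and 1.09 CPM in GL261 and had no UMI in GL261-GSCs, at least 95.0-fold lower (edgeR adjusted p = 0.00216). Fxyd1 and Fxyd3 had log2 changes of -3.70 and -5.83, and Atp2b4 of -2.76. Among the rises were Atp1b1, a subunit of the sodium pump, and Slc8a2, a sodium-calcium exchanger, with log2 changes of 3.45 and 4.92. Atp1b1 and Slc8a2 passed the filter on low counts only through GL261-GSCs, and Fxyd3, Fxyd7 and Atp2b4 only through GL261. Without GL261 replicate 1 or 2 the calls of Atp1b1, Fxyd1 and Atp2b4 were lost, without replicate 1 also Fxyd3, without replicate 2 also Slc8a2, and without GL261-GSCs replicate 3 Atp2b4. The genes named were chosen after their values were seen.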
